A study of Mus musculus with 2 samples.

Results

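H2-Q6, H2-Q8 and H2-Q10 are class Ib genes of the mouse major histocompatibility complex (MHC), and their messenger RNA was compared between CD8 single-positive thymocytes of 2 genotypes. They were chosen by gene symbol from the authors' deposited table, which lists probe sets that differed at least 2-fold, so the differences of the 3 genes below describe the choice and are given with no test. Each gene had 1 probe set in that table, so there were 3 probe sets among its 1003. The value table holds 35556 probe sets without gene names, so whether these genes have further probe sets is unknown here. The mice under study were CIITAtgpIV-/-, a name read here as a transgene for CIITA (the class II transactivator) combined with loss of promoter IV of the endogenous Ciita gene, and their controls were B6 wild-type mice. Both genotypes were on the B6 background and aged 8 weeks. The promoter that drives the transgene is not given in the sources used here. There was 1 array for each genotype, hybridised with RNA pooled from 2 to 4 thymuses after magnetic sorting of CD8 single-positive cells. No difference below could be checked against replicates, so none carries a p-value.

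MHC class I molecules present peptides on the cell surface, usually with beta-2 microglobulin as a partner chain. Class Ib genes resemble the classical class I genes H2-K1 and H2-D1 but vary less between strains and often have a restricted tissue distribution. The Q-region genes H2-Q6 to H2-Q9 encode the Qa-2 antigen, which is held in the membrane by a lipid anchor in many tissues. In the thymus, Qa-2 is used as a surface marker of late single-positive maturation. H2-Q10 encodes a class I molecule secreted by the liver. Promoter IV of Ciita serves interferon-induced expression and thymic epithelium. CIITA switches on class II genes through the SXY module, a set of promoter boxes that class I promoters also carry and that the related factor NLRC5 uses at class I genes.

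All 3 probe sets had higher signal in the CIITAtgpIV-/- array. H2-Q6 had a log2 signal of 11.04 in CIITAtgpIV-/- thymocytes, against 9.28 in B6 wild-type thymocytes, a difference of 1.76 on the log2 scale or 3.39-fold. H2-Q8 had a log2 signal of 9.63 in CIITAtgpIV-/- thymocytes, against 8.26 in B6 wild-type thymocytes, a difference of 1.37 or 2.59-fold. The probe sets named H2-Q6 and H2-Q8 were well above the expression floor of 5.42 in each array. The floor was set by taking each probe set's higher value and then the median of these. The secreted-type gene H2-Q10 had a log2 signal of 5.89 in CIITAtgpIV-/- thymocytes, against 4.74 in B6 wild-type thymocytes, a difference of 1.15 or 2.21-fold. Its value lay 0.48 above the floor in CIITAtgpIV-/- and 0.67 below it in B6 wild type. The RMA normalization used by the authors compresses differences at low signal, so the fold of H2-Q10 may be understated. Bulk RNA does not tell a larger share of cells with the transcript apart from more RNA per cell.

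**Figure D1:**
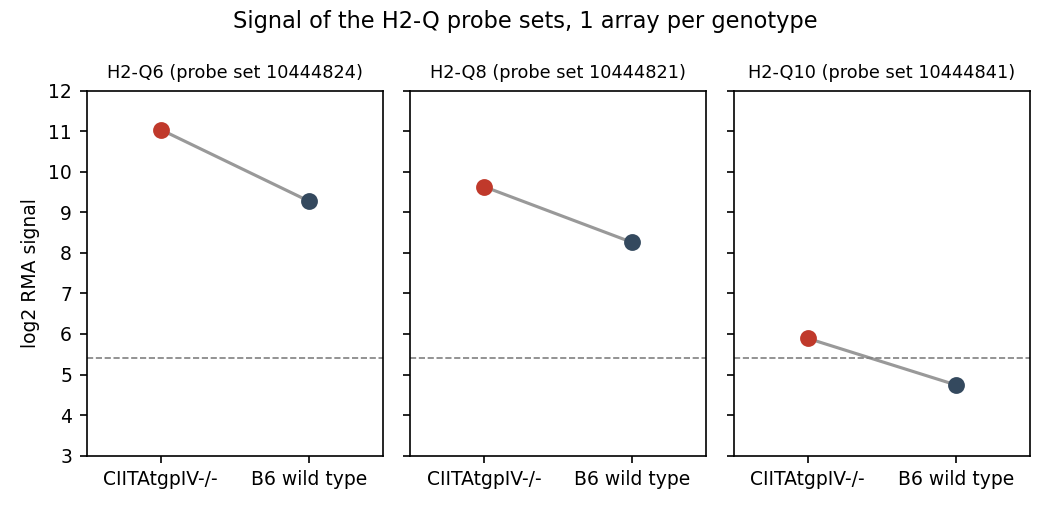
Log2 RMA signal (vertical axis) of the probe sets of H2-Q6, H2-Q8 and H2-Q10 in the CIITAtgpIV-/- array (red, left) and the B6 wild-type array (dark, right), 1 array each with no error bar possible. The dashed line is the expression floor of 5.42, which H2-Q10 crosses between 5.89 in CIITAtgpIV-/- and 4.74 in B6 wild type.

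The sizes of the 3 differences were set beside the behaviour of other probe sets. Of the 28560 probe sets in the identifier range that the authors listed from, 0.977% were higher by 2-fold or more in CIITAtgpIV-/- and 2.54% were lower by 2-fold or more, 3.51% in either direction. The 3 genes were chosen from among the probe sets past 2-fold, so nothing is read from these shares. The robust standard deviation (SD, from the median absolute deviation) of the difference over these probe sets was 0.25 log2 units around a median of 0.031. That spread mixes measurement error with differences between the pools and between the genotypes.

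The differences were also set beside probe sets of like brightness, as a description only. Among the 803 probe sets whose mean signal lay within 0.5 log2 units of that of H2-Q6, 1.12% were at least as much higher as H2-Q6. The corresponding share was 0.732% of 2187 for H2-Q8 and 0.587% of 4427 for H2-Q10. The local robust SD was 0.36 around H2-Q6, 0.35 around H2-Q8 and 0.23 around H2-Q10. Divided by its local robust SD, the difference was 4.93 for H2-Q6, 3.89 for H2-Q8 and 4.93 for H2-Q10. The order of the genes by fold was therefore not their order in these units. H2-Q6, H2-Q8 and H2-Q10 were chosen from among probe sets past 2-fold, and that choice favours small shares and large ratios. The shares and ratios are therefore not a test of these genes.

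Among genes with a symbol that were higher in CIITAtgpIV-/-, H2-Q6 ranked 61 of 217, H2-Q8 ranked 107 and H2-Q10 ranked 161. The 3 differences were spread over 0.62 log2 units, the gap between H2-Q6 and H2-Q10. The gap between H2-Q8 and H2-Q10 was 0.23 and that between H2-Q6 and H2-Q8 was 0.39. With 1 array for each genotype, none of these gaps could be tested. At the edge of the authors' selection, the smallest listed increase was 1.003 and the largest increase in the range that was not listed was 0.997, while H2-Q10, the lowest of the 3 genes, was at 1.15.

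**Figure D2:**
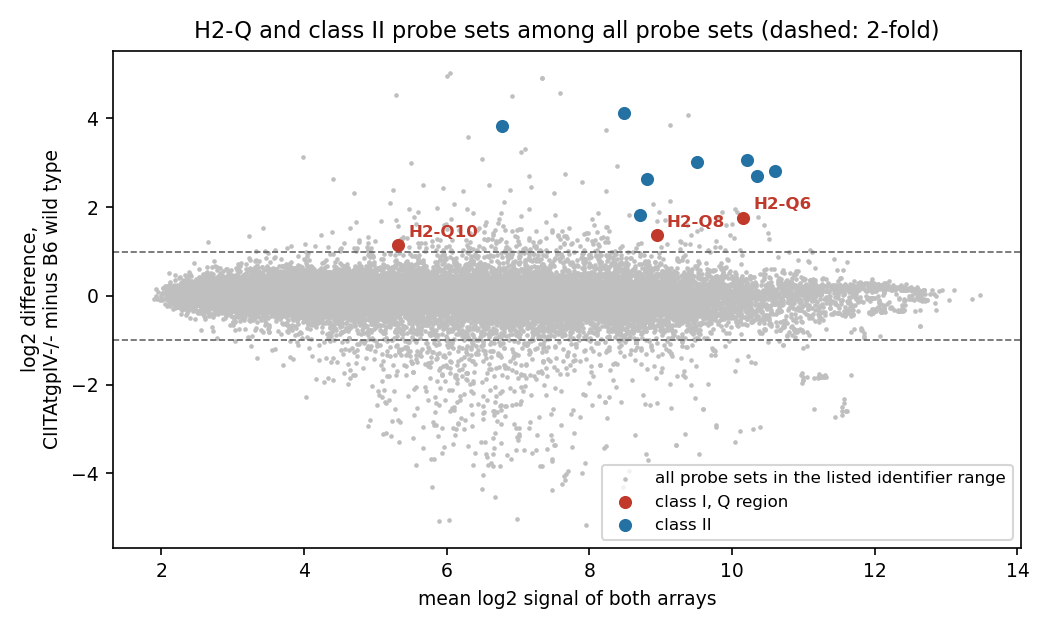
Log2 difference, CIITAtgpIV-/- minus B6 wild type (vertical axis), against mean log2 signal of both arrays (horizontal axis) for the 28560 probe sets of the listed range (grey), with the Q-region class I genes in red, the 8 listed class II genes in blue and dashed lines at 2-fold. H2-Q6, H2-Q8 and H2-Q10 lie above the upper line at 1.76, 1.37 and 1.15, and all 8 class II genes lie above them, at 1.81 or more.

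The probe sets measure close copies, and which copy gave the signal is uncertain. In the authors' deposited table, 14 of the 19 probes of the H2-Q6 probe set match the H2-Q6 transcript NM_207648, leaving 5 that do not. For H2-Q8 the match to NM_023124 covers 11 of 15 probes, and for H2-Q10 the match to NM_010391 covers 25 of 37. These shares, 74%, 73% and 68%, were low for the table. Of 996 listed probe sets with a value, 4.72% had a share of 74% or less, and 64.6% had 100%. Low shares were not particular to the H2-Q probe sets. Among the listed class II genes, H2-DMb2 had 67% and H2-DMa 65%, and the rest had 93% or more. The table does not say what the unmatched probes bind.

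The positions in the authors' deposited table bear on the same point for H2-Q8. The table puts the H2-Q6 probe set on the plus strand of chromosome 17 from 35561822 to 35566994 and the H2-Q10 probe set from 35607034 to 35611508, in a genome build that is not named. It puts the H2-Q8 probe set from 35531044 to 35534750, which is 30778 bases before the start of H2-Q6. In RefSeq's table for GRCm38.p6, the H2-Q gene next before H2-Q6 is not H2-Q8 but H2-Q5, a transcribed pseudogene, 30751 bases away from start to start. The spacing from H2-Q6 to H2-Q10 was 45212 bases in the authors' deposited table and 45239 in RefSeq, so the order and spacing of this stretch were close in both sources. RefSeq lists H2-Q8 outside the run of genes from H2-Q1 to H2-Q10. By order and spacing, the probe set named H2-Q8 therefore lies where RefSeq places H2-Q5. The name H2-Q8 is kept here as the table gives it, and which copies its probes bind was not tested.

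Upstream sequence shows how near the copies are and which class I promoter boxes they hold. RefSeq promoter windows of GRCm38.p6 matched 2 of the 3 genes, H2-Q6 and H2-Q10, and the neighbouring Qa-2 gene H2-Q7 is shown beside them as a close copy of H2-Q6. The windows end at the base before the annotated start and lie on the plus strand at chr17:35424600-35424849 for H2-Q6, chr17:35469839-35470088 for H2-Q10 and chr17:35438905-35439154 for H2-Q7. Capitals mark matches to the kappa B site GGGATTCCC and the class I interferon element TTTCACTTC. They also mark the X2 core TGACG. The Y box is in capitals as ATTGG on the strand shown and as CCAAT where it lies on the other strand. The TATA box is marked as TATAA, which in H2-Q10 overlaps its reverse match.
H2-Q6: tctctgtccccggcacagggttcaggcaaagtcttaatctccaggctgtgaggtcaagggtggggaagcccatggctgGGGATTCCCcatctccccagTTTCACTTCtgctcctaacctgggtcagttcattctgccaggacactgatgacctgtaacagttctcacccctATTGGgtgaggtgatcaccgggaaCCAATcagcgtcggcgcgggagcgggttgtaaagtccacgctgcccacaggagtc
H2-Q10: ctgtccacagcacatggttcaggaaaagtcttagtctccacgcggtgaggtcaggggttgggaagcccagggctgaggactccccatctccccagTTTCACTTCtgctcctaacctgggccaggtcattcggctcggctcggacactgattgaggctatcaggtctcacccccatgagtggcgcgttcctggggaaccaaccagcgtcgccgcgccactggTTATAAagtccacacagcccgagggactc
H2-Q7: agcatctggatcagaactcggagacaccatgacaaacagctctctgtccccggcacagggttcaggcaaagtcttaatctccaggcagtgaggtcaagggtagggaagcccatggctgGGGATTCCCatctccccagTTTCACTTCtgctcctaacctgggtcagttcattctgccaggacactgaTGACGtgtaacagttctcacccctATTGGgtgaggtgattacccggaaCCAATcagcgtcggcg

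The H2-Q6 and H2-Q7 windows were nearly the same, with 254 of 260 aligned bases identical once 50 bases after the start were included. H2-Q10 was further away, sharing 233 of 295 aligned bases with H2-Q6, or 79.0%. It was closer to the classical gene H2-D1, with 87.3% identity, than to H2-Q6.

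Motifs were searched on both strands of the 250 bases before each start. The kappa B site, bound by NF-kappa B at class I genes, was found in H2-Q6, starting at position -172 from the annotated start, in H2-Q7 and in H2-D1, but not in H2-Q10. These letters occur in 0.301% of the 32851 RefSeq windows. The Y box, bound by NF-Y in the SXY module, was found in each orientation in H2-Q6, at -79 and -55, and not in H2-Q10, while 33.8% of all windows hold it. TATAA was found in H2-Q10 at -28, with its overlapping reverse match TTATA at -29, and not in H2-Q6, against 22.8% of windows overall. The X2 core, found in 17.8% of windows, had no match in H2-Q6 or H2-Q10 and 1 in H2-Q7. The RFX core GCAAC of this module had no match in either gene and is in 29.9% of windows. Of 6 listed class II genes with a window, all 6 held the Y box and 5 the RFX core in any of their windows, and 0 held the kappa B site. H2-DMa has 2 windows, with the RFX core at -7 in 1 and the Y box at -198 in the other.

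The interferon element was the 1 box that H2-Q6 and H2-Q10 shared. TTTCACTTC starts at -152 in H2-Q6 and at -155 in H2-Q10. It was not particular to them, as it was also found in H2-Q7 at -113, H2-Q4 at -153 and H2-D1 at -150, though not in H2-Q2. H2-Q7, H2-Q4 and H2-D1 were not listed as different, and the sizes of their differences are unknown here. The element is present in 0.402% of all windows, but its letters were chosen after the sequences were seen. The core TTTCNNTTT, chosen earlier, had no match in either gene and is in 9.37% of windows. H2-Q6 and H2-Q10 differed in the kappa B, Y box and TATAA letters of their windows. Whether any of these boxes bears on the signal differences was not tested. A match is a description of letters, and none of these sites was measured here.

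**Figure D3:**
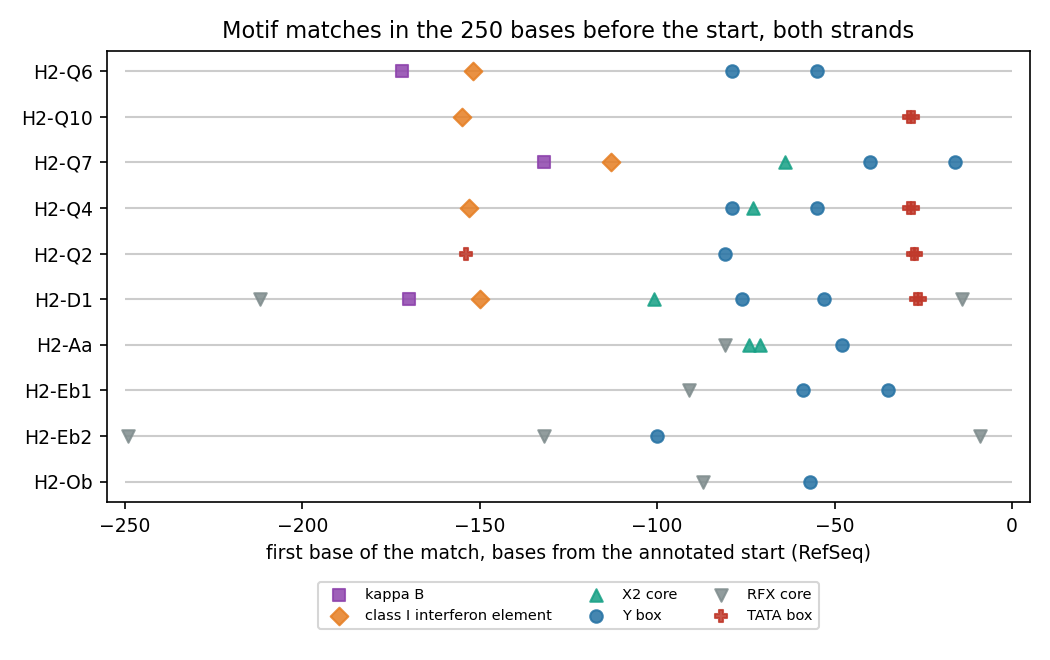
First base of each motif match in bases from the annotated start (horizontal axis) in the 250 bases before the start, for H2-Q6 and H2-Q10, 4 other class I genes and 4 listed class II genes (rows), with 1 marker shape for each motif and both strands drawn alike. H2-Q6 holds the kappa B site at -172 and Y boxes at -79 and -55, and H2-Q10 holds, of the motifs searched, only the interferon element at -155 and the TATA box near -28.

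Gene lists around class I were read against the background of 3.51%, so a count of 0 in a short list is near that background. Of 26 further class I heavy chain genes, H2-K1, H2-D1, H2-Q7 and H2-T23 among them, 0 were listed. The same held for 15 genes of class I assembly and peptide supply, such as B2m, the partner chain, and Tap1, a chain of the peptide transporter. It also held for 9 regulators of the SXY module, Nlrc5, Rfx5 and Ciita included. Gene names come only from the listed probe sets, so the size of the difference of a gene that was not listed is unknown here.

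Class II genes, the known targets of CIITA, were higher wherever listed, which was 8 of the 12 genes on the class II list. That list covers chains and peptide loading, and the 8 include Cd74, which is not an H2 gene. In the range, 0.977% of probe sets were higher by 2-fold or more. The list was chosen with earlier results known, so nothing is read from the count. Their differences ran between 1.81 and 4.13 on the log2 scale with a median of 2.92, against 1.15 to 1.76 with a median of 1.37 for the 3 H2-Q genes. The ranges did not overlap, though the H2-Q6 difference of 1.76 came within 0.1 of that of H2-DMa, a chain of the class II peptide exchange factor, at 1.81. All listed genes with a symbol had a median of -1.29, with 217 higher and 575 lower. The medians of both groups, H2-Q and class II, rest on genes selected for a difference of 2-fold.

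The file places 14 listed probe sets between the first and the last H2 gene of its list, a stretch that runs from H2-DMa to H2-Q10. Of these, 10 are H2 genes, all higher in CIITAtgpIV-/-, and they set the bounds of the stretch. The 4 that are not H2 genes were divided, 2 higher and 2 lower. BC051142 and Btnl5, both close to the class II genes, had differences of 2.10 and 1.07. D17H6S56E-5 and Clic1, a chloride intracellular channel gene, were lower, with differences of -1.32 and -1.05, and lie between the class II genes and the H2-Q genes. The nearest listed class II gene, H2-Eb2, starts 1099.2 kb before H2-Q6, and genes of the stretch that were not listed have no known value here.

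**Figure D4:**
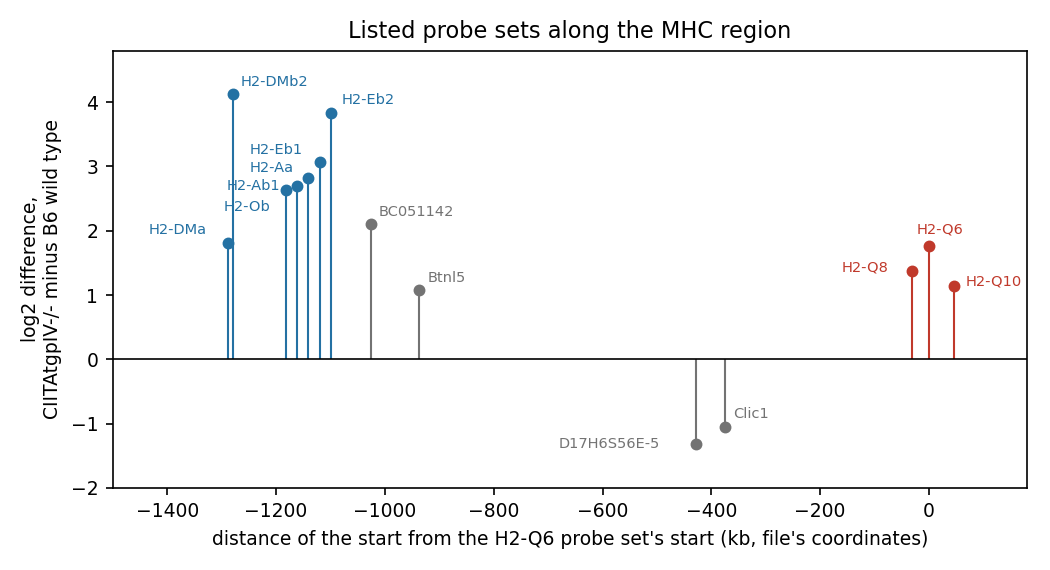
Log2 difference, CIITAtgpIV-/- minus B6 wild type (vertical axis), of the 14 listed probe sets of the MHC region against the distance of each start from the start of the H2-Q6 probe set in kb (horizontal axis, coordinates of the file), with H2-Q genes in red, class II genes in blue and others in grey. The class II genes reach 4.13 at the left, D17H6S56E-5 and Clic1 lie below 0 in the middle, and H2-Q8, H2-Q6 and H2-Q10 lie between 1.15 and 1.76 at the right.

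Genes on either side of class I recognition were read next. Of 20 interferon response genes, 2 were listed, both higher. In the range, 0.977% of probe sets were higher by 2-fold or more. The gene lists were chosen with earlier results known, so nothing is read from such counts. Iigp1, an interferon-inducible GTPase, had a log2 signal of 7.81 in CIITAtgpIV-/- thymocytes and 6.68 in B6 wild-type thymocytes, and Ifi44 had 7.80 in CIITAtgpIV-/- thymocytes and 6.71 in B6 wild-type thymocytes. Their differences, 1.13 and 1.08, were near the 2-fold threshold of the list. Of 22 receptors of class I molecules, 5 were listed, all of them Klra (Ly49) genes and all higher. Klra6 differed by 1.67 on the log2 scale and Klra8 by 5.02, both from B6 wild-type signals below the floor (3.89 and 3.54), which limits these differences. The Klra genes are also close copies of each other. The receptors Cd8a, Klrd1 and Klrc1 were not listed.

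Where listed, the members of the cell marker lists were lower in the array in which the H2-Q genes were higher. The Klra and class II genes, which were higher, are not on these marker lists, so the statement covers these lists only. In the range, 2.54% of probe sets were lower by 2-fold or more. The marker lists were chosen with earlier results known, so the counts here are descriptive. Of 8 double-positive thymocyte markers, 7 were in the table, each of them lower in CIITAtgpIV-/-. Among them, Rag1 had a log2 signal of 4.47 in CIITAtgpIV-/- thymocytes against 9.51 in B6 wild-type thymocytes. The summed signal of these 7 was 7.61 on the log2 scale in CIITAtgpIV-/- and 11.28 in B6 wild type. Double-positive thymocytes are known to carry little surface class I, and the part of this shift in the H2-Q differences was not tested. Listed as lower were 3 of 8 myeloid and dendritic, 2 of 4 red cell and 1 of 7 B cell markers, and the other markers of these lists have no named value. The summed log2 signals of those listed in CIITAtgpIV-/- and in B6 wild type were 5.28 and 7.59 for the myeloid and 6.16 and 9.49 for the red cell markers. The B cell marker, Jchain, was below the expression floor in both arrays. Of 8 NK cell, 6 thymic epithelium, 4 hepatocyte and 6 CD8 T cell markers, 0 were listed, so the labelled cell type could not be checked on levels of Cd8a or Cd3e.

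The listed genes with the most similar pair of levels were found by the distance over both arrays. With 2 arrays this measure reflects little more than the signal and the difference of a probe set. For H2-Q6 they were AW112010, at a distance of 0.15 log2 units, and Ppp3cc, a catalytic subunit of calcineurin, at 0.21. For H2-Q8 they were Armc7, at 0.018, and Slco3a1, an organic anion transporter, at 0.073. For H2-Q10 they were the gene models Gm4814 and Gm13235, at 0.048 and 0.12.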

How the data were processed

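RNA was measured by Affymetrix array in 2 samples, 1 of each genotype. The deposited value table holds log2 signals from the authors, made with GCOS and RMA per the submitters' processing notes. Expression Console 1.1 and affy 2.9.2 are named in the design text. The authors' deposited table gives the log2 ratio, the numbers of probes and a coverage percent for the assigned transcript. Its ratio equals CIITAtgpIV-/- minus B6 wild type of the value table within 0.001 in all 1003 probe sets. For the array type and the genome build, the sources used here give nothing. Its 2 signal columns, whose headers the labels do not name, were not used.

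Differences were computed with Python 3.11.15 and pandas 2.3.3, and promoters were aligned with Biopython 1.88. Gene symbols were updated through RefSeq accessions, and the probe set with the highest mean signal stood for a gene. Named genes were the 3 genes, the listed H2 genes, up to 4 listed members of each gene list, the listed probe sets between the outer H2 genes and the 2 nearest genes by level. The members and gene lists were chosen with earlier results of these data known. Normalizations were tested on simulated data. The number of arrays limits the precision.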

Additional observations from a re-analysis of the deposited data

How the results depend on the processing

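All 3 H2-Q differences remained positive and above 2-fold with loess, quantile or median-centring normalization. Averaging over probe sets changed nothing, because each gene has 1 listed probe set. The largest move was 0.093 on the log2 scale, and H2-Q10 came closest to the threshold, at 1.05 with median centring. The direction is a weak check, since the genes were chosen past 2-fold. The 10 listed H2 genes higher at 2-fold became 9 with the floor at the 75th percentile of 7.50, which H2-Q10 did not reach. They became 8 at 3-fold, without H2-Q8 and H2-Q10. At 4-fold they became 6, without any of the 3 H2-Q genes and without the class II gene H2-DMa, at 3.52-fold. Probe sets higher in the listed range numbered 279 at 2-fold, 914 at 1.5-fold and 85 at 3-fold. Of 27 alternative values, 24 moved by less than the spread between probe sets (or, for counts, by under 1.5 times), 3 moved by more and 0 reversed. Some of the 24 could not move. These were the averages over 1 probe set and the H2-Q median minus the class II median, -1.55 with and without median centring. No paired analysis was possible because there was 1 array per genotype, so none could be left out either. Signal near the floor limits the fold of H2-Q10.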
